A study of Mus musculus with 6 samples.

Results

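The genes described here encode C-type lectin receptors, Siglecs and a few receptors of related function. A gene was taken when its platform annotation gave a single symbol that begins with Clec and a digit, with Siglec or with Cd209, or that is Cd22, Cd33, Cd69, Cd207, Ly75 or Colec12. Clec9a, Cd209a and Siglech were left out. This gave 42 of the 18193 genes named on the array, with 56 probe sets. They comprised 26 Clec genes, 6 Siglec-type genes (Cd22 and Cd33 included), 6 Cd209 genes and Cd69, Cd207, Ly75 and Colec12. Each gene is described by the brightest of its probe sets, by mean log2 value on the 6 arrays.

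The arrays hold RNA of sorted cells grown from mouse embryonic stem cells, with 3 Gata3-/- arrays (no intact copy of the transcription factor gene Gata3) and 3 Gata3+/- arrays (1 disrupted copy). There is no wild-type group. Both genotypes were differentiated on OP9 and OP9-DL1 mouse stromal cells, of which OP9-DL1 displays a Notch ligand, and both received the cytokines IL-7 and Flt3L, and the labels call the sorted cells T-cell progenitors. The labels call the arrays of each genotype biological replicates. They do not say whether these came from separate clones or cultures, nor which surface markers were used in the sort. The p-values therefore measure only the spread between these arrays.

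C-type lectin receptors bind sugars, glycolipids or proteins through a lectin-like domain, and many are found on macrophages and dendritic cells. Activating receptors signal through an immunoreceptor tyrosine-based activation motif (ITAM), carried by an adaptor such as FcRγ (Fcer1g) or DAP12 (Tyrobp) or as a single copy in their own tail, to the kinase SYK and on to the CARD9, BCL10 and MALT1 complex. Inhibitory receptors, most Siglecs among them, carry the inhibitory counterpart (ITIM), which recruits the phosphatases SHP-1 (Ptpn6) and SHP-2 (Ptpn11). Siglecs bind sialic acid on the same or neighbouring cells.

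The labelled cell type was checked against marker genes. Of 7 T-cell markers named on the array, none reached the minimum used here, a log2 GC-RMA intensity of 4, on any array (Cd3d, Cd3e, Cd3g, Cd247, Bcl11b, Ptcra and Thy1). All 7 macrophage and monocyte markers were measured, with a mean log2 level of 12.09 to 12.34 on Gata3-/- arrays and 12.37 to 12.65 on Gata3+/- arrays; Fcgr1, a high-affinity Fc receptor, fell by 0.70 on the log2 scale (SE 0.12, limma adjusted p = 0.0431) and 6 did not pass. The cells are therefore called by their label and genotype below, and no cell type is assigned. Gata3 itself averaged 5.93 ± 0.48 in the Gata3-/- group and 5.88 ± 0.50 in the Gata3+/- group (SD, n = 3 each). The labels do not say which part of the gene is disrupted, so its probe set does not check the genotypes.

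Of the 42 genes, 19 were measured, meaning a log2 intensity of 4 or more on at least 3 of the 6 arrays. That is 45.2% of them, against 56.6% of all named genes. Cd209c reached the minimum on 1 array only, and 22 were silent on all 6 arrays. Levels below are log2 GC-RMA intensities, differences are Gata3-/- minus Gata3+/- on the log2 scale with their standard error (SE), and adjusted p-values are from limma over all 20102 probe sets tested. Brightness differs between probe sets for technical reasons, so no gene's level is set against another gene's.

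Between the genotypes, 3 of the 19 measured genes passed an adjusted p of 0.05. Ly75 rose in Gata3-/- arrays, and Clec1b and Siglecf fell. Among all 10302 genes tested, 5.27% passed in either direction, 2.86% higher and 2.41% lower. The other 16 genes did not pass. For 8 genes (42.1%) the genotypes did not overlap, 4 higher and 4 lower in Gata3-/- arrays, against 33.6% of all genes tested, of which 16.9% were higher and 16.7% lower. The median difference of the 19 genes was -0.03, against -0.02 over all genes tested. Their median absolute difference was 0.46, against 0.18 over all genes tested. These arrays measured whole populations, in which fewer cells of a type and less RNA per cell cannot be told apart. All 3 calls were close to the threshold, with adjusted p-values between 0.0383 and 0.0462, and leaving out any 1 of the 6 arrays left 0 of them past it. Of all genes, those fits called 0 to 3, against 543 with all 6 arrays, so the loss was not particular to these 3.

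**Figure D1:**
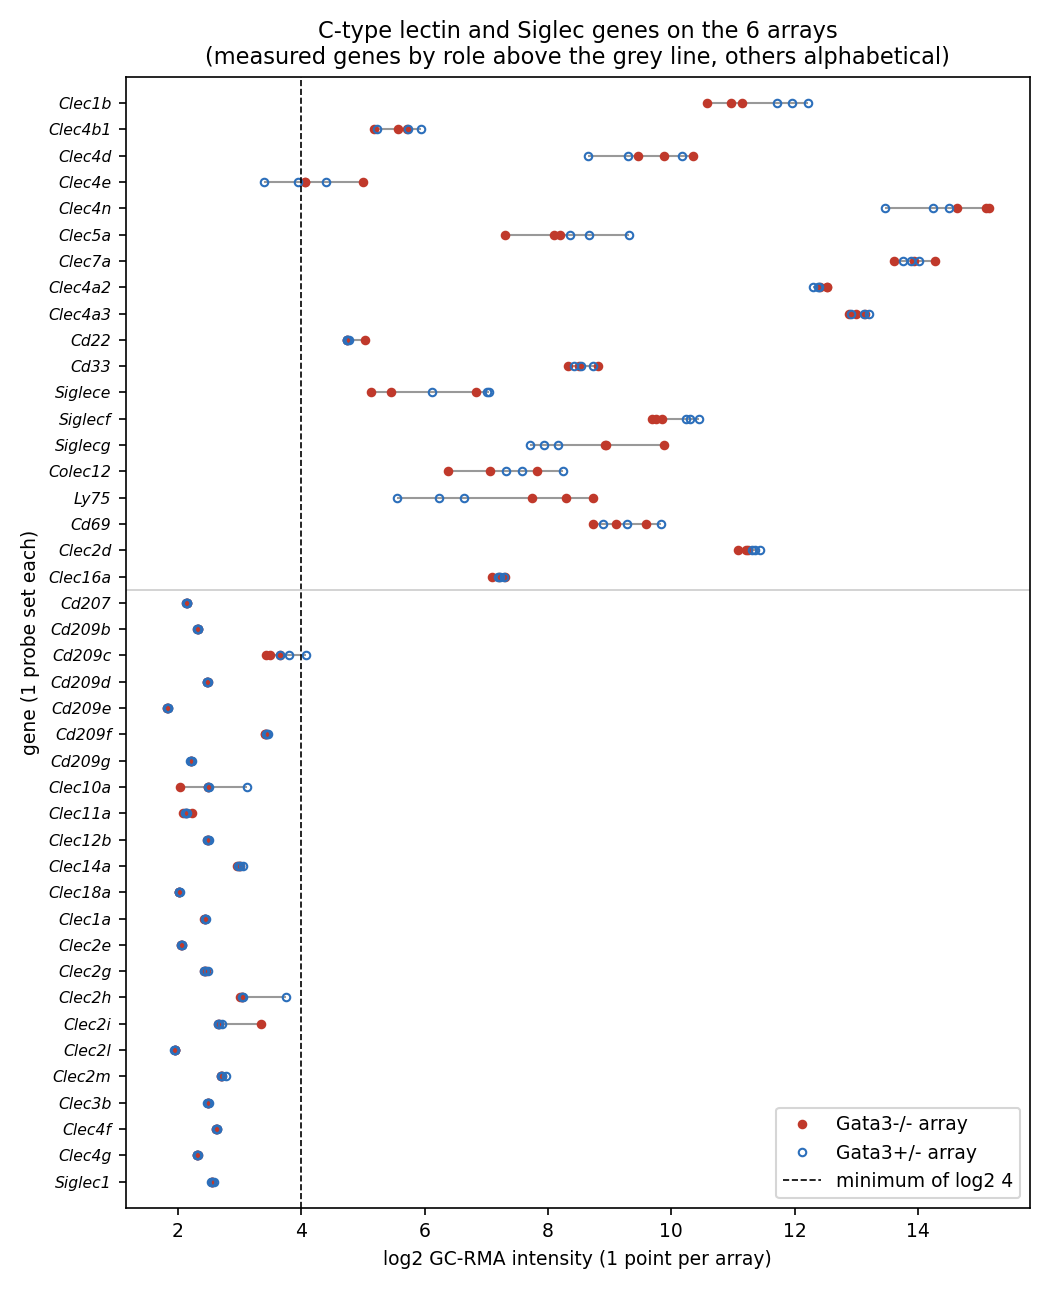
Log2 GC-RMA intensity (horizontal axis) of the 42 genes, 1 point per array, with Gata3-/- arrays filled and Gata3+/- arrays open and the minimum of log2 4 as a dashed line. The 19 measured genes stand above the grey line by role; of the genes under it, only Cd209c reached the minimum, on 1 array.

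Among endocytic receptors, the dendritic cell receptor Ly75 had the largest difference of the 19 genes. Ly75 encodes DEC-205, which takes up antigen for presentation. Its probe set stood at 8.30, 7.74 and 8.73 on Gata3-/- arrays, against 6.24, 5.55 and 6.64 on Gata3+/- arrays. The lowest Gata3-/- array lay above the highest Gata3+/- array, and the array numbered 2 was the lowest of each genotype. The difference was 2.11 (SE 0.36, 95% interval 1.21 to 3.01, adjusted p = 0.0428), a 4.33-fold higher level.

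The list of conventional dendritic cell markers had a mean level of 7.10 to 7.59 on Gata3-/- arrays and 5.57 to 6.59 on Gata3+/- arrays over 7 named genes, of which 5 were measured. Zbtb46, a transcription factor of these cells, rose by 1.89 (SE 0.35, adjusted p = 0.0485), and Xcr1 and Cd209a were silent. The other 4 did not pass, with positive differences for all (Ccr7 2.42, Irf4 2.25, Flt3 1.32 and Itgax 0.53). The Langerhans cell markers Epcam and Cdh1, both epithelial adhesion molecules, had differences of 1.62 (SE 0.25, adjusted p = 0.0363) and 2.22 (SE 0.63, adjusted p = 0.108). Cd207, which encodes langerin, the defining lectin of those cells, was silent, at 2.13 to 2.14 on Gata3-/- arrays and 2.13 to 2.15 on Gata3+/- arrays. The part of these cell types in the difference of Ly75 was not tested.

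Colec12 encodes a scavenger receptor of endothelial and stromal cells. It stood at 7.06, 6.37 and 7.82 on Gata3-/- arrays, against 7.58, 7.32 and 8.25 on Gata3+/- arrays. The genotypes overlapped, and the difference of -0.63 (SE 0.42) did not pass, with a 95% interval from -1.68 to 0.42 (adjusted p = 0.439). The 12 markers of OP9 stroma had a mean level of 6.52 to 7.95 on Gata3-/- arrays and 7.11 to 8.14 on Gata3+/- arrays. Of these 10 were measured, 0 passed and Dcn and Lum were silent. Both Colec12 and the mean of the stromal markers were lowest on the array numbered 2 of each genotype.

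Activating C-type lectin receptors did not move in one direction. Of 7 measured, Clec1b fell and 6 did not pass, with positive differences for Clec4n, Clec4d, Clec4e and Clec7a and negative ones for Clec5a and Clec4b1. Clec1b encodes CLEC-2, the receptor for podoplanin that platelets use and that some myeloid cells also carry. It stood at 11.14, 10.58 and 10.96 on Gata3-/- arrays, against 12.22, 11.95 and 11.72 on Gata3+/- arrays. All 3 Gata3-/- arrays lay below all 3 Gata3+/- arrays. The difference was -1.07 (SE 0.19, 95% interval -1.55 to -0.59, adjusted p = 0.0462), a level 0.477 times that of Gata3+/- arrays.

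Platelet and megakaryocyte markers were bright on all arrays, and their part in the difference of Clec1b was not tested. The 5 markers had a mean level of 10.28 to 11.17 on Gata3-/- arrays and 10.86 to 11.24 on Gata3+/- arrays, so the genotypes overlapped. None passed, and their median difference was -0.28. The largest was that of Gp1bb, a chain of the receptor for von Willebrand factor, at -0.74 (SE 0.23, adjusted p = 0.136). All Gata3-/- arrays of Gp1bb lay below all its Gata3+/- arrays, while the genotypes overlapped for Pf4, Ppbp, Itga2b and Gp9. The gene for podoplanin, Pdpn, was silent on all arrays.

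Clec4n encodes Dectin-2, which recognises fungal mannans and signals through FcRγ. It stood at 15.10, 14.63 and 15.15 on Gata3-/- arrays, against 14.25, 13.47 and 14.50 on Gata3+/- arrays. The genotypes did not overlap, but the lowest Gata3-/- array and the highest Gata3+/- array were close. The difference of 0.89 (SE 0.30, 95% interval 0.15 to 1.63) did not pass (adjusted p = 0.152). The second probe set of Clec4n had a difference of 0.84.

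Clec4d and Clec4e encode MCL and Mincle, which recognise a mycobacterial glycolipid and pair with FcRγ. Clec4d stood at 9.88, 9.46 and 10.36 on Gata3-/- arrays, against 9.30, 8.64 and 10.17 on Gata3+/- arrays. The genotypes overlapped, with the array numbered 3 the highest of each (difference 0.53, SE 0.43, adjusted p = 0.527). Clec4e lay near the minimum, at 4.06, 4.05 and 5.002 on Gata3-/- arrays, against 3.95, 3.39 and 4.40 on Gata3+/- arrays, of which replicate 3 alone reached it (difference 0.46, SE 0.36, adjusted p = 0.514). The Clec4d probe set is of the kind that Affymetrix marks as shared by several transcripts, so close relatives may contribute to it.

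Clec7a encodes Dectin-1, the receptor for fungal beta-glucan. It was bright on all arrays, at 13.93, 13.62 and 14.27 on Gata3-/- arrays and 13.89, 13.76 and 14.02 on Gata3+/- arrays. The ranges overlapped almost entirely, and the difference of 0.05 had a 95% interval from -0.40 to 0.50 (adjusted p = 0.903). Clec5a encodes MDL-1, a myeloid receptor that pairs with DAP12 and DAP10. Clec5a stood at 8.09, 7.30 and 8.20 on Gata3-/- arrays, against 9.31, 8.36 and 8.66 on Gata3+/- arrays. The genotypes did not overlap, although the difference of -0.91 (SE 0.34, 95% interval -1.75 to -0.07) did not pass (adjusted p = 0.184). Clec4b1, which encodes the FcRγ-coupled receptor DCAR, ranged from 5.19 to 5.72 on Gata3-/- arrays and from 5.22 to 5.95 on Gata3+/- arrays (difference -0.14, SE 0.23, adjusted p = 0.774).

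The DCIR genes Clec4a2 and Clec4a3 varied little. Clec4a2 encodes DCIR, an ITIM-bearing receptor of dendritic cells and macrophages, and Clec4a3 a close relative. Clec4a2 stood at 12.53, 12.53 and 12.41 on Gata3-/- arrays, against 12.30, 12.39 and 12.39 on Gata3+/- arrays. These values did not overlap, but the gap between the nearest arrays was small, and the difference of 0.13 (SE 0.07, 95% interval -0.05 to 0.32) did not pass (adjusted p = 0.357). Its second probe set differed by 0.03. Clec4a3 ranged from 12.88 to 13.15 on Gata3-/- arrays and from 12.91 to 13.21 on Gata3+/- arrays (difference -0.08, SE 0.11, adjusted p = 0.748).

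Of 6 Siglec-type genes 5 were measured; Siglecf fell and 4 did not pass. Siglecf encodes an inhibitory receptor known on eosinophils and alveolar macrophages. It stood at 9.75, 9.69 and 9.85 on Gata3-/- arrays, against 10.31, 10.23 and 10.45 on Gata3+/- arrays. The arrays of each genotype lay close together and the genotypes did not overlap. The difference was -0.57 (SE 0.09, 95% interval -0.79 to -0.34, adjusted p = 0.0383), a level 0.675 times that of Gata3+/- arrays. With a 2-fold minimum added, Siglecf was no longer called.

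Mast cell, basophil and eosinophil markers had a mean level of 4.24 to 4.89 on Gata3-/- arrays and 3.43 to 4.18 on Gata3+/- arrays over 7 genes. Of these 2 were measured, Prg2 and Cpa3, and 0 passed, so the mean rests in part on genes below the filter. Cpa3 had a difference of 0.14 (SE 0.91, adjusted p = 0.949). The part of these cell types in the difference of Siglecf was not tested. Of the eosinophil genes among them, Prg2, a granule protein, stood at 9.74, 9.35 and 10.26 on Gata3-/- arrays, against 5.57, 6.74 and 8.73 on Gata3+/- arrays (difference 2.77, SE 0.80, adjusted p = 0.112). Epx, the eosinophil peroxidase, reached the minimum on 2 Gata3-/- arrays and no Gata3+/- array, and the eotaxin receptor Ccr3 was silent.

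Siglecg encodes an inhibitory receptor of B cells that binds CD24. It stood at 9.88, 8.95 and 8.92 on Gata3-/- arrays, against 7.94, 7.72 and 8.17 on Gata3+/- arrays. All Gata3-/- arrays lay above all Gata3+/- arrays, with Gata3-/- replicate 1 well above the other two. The difference of 1.31 (SE 0.29, 95% interval 0.59 to 2.03) did not pass (adjusted p = 0.0672); it passed with array weights (adjusted p = 0.0354). Of 6 B-cell markers 2 were measured, Cd79b and Ebf1, and 0 passed. The mean level of the list was 3.92 to 4.01 on Gata3-/- arrays and 4.02 to 4.16 on Gata3+/- arrays. Cd79a, Pax5, Ms4a1 and Vpreb1 were silent. The mean of the list therefore rests in part on silent genes. Cd79b stood at 9.25, 9.62 and 9.065 on Gata3-/- arrays and 9.62, 9.85 and 9.51 on Gata3+/- arrays.

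Siglece encodes an inhibitory Siglec of neutrophils and macrophages. It stood at 6.83, 5.13 and 5.45 on Gata3-/- arrays, against 7.01, 6.12 and 7.04 on Gata3+/- arrays. Gata3-/- replicate 1 lay among the Gata3+/- arrays, so the genotypes overlapped, and the difference of -0.92 (SE 0.51) had a wide 95% interval, from -2.18 to 0.34 (adjusted p = 0.346). Of 7 granulocyte markers 3 were measured and 0 passed, with a mean level of 4.30 to 5.59 on Gata3-/- arrays and 3.83 to 4.83 on Gata3+/- arrays, while Elane, Ngp, Camp and Ltf were silent. Those measured were Mpo, S100a8 and S100a9, with differences of -0.79, 2.37 and 2.63. Cd33, the gene after which the CD33-related Siglecs are named, stood at 8.82, 8.50 and 8.32 on Gata3-/- arrays and 8.72, 8.42 and 8.53 on Gata3+/- arrays (difference -0.01, 95% interval -0.39 to 0.37, adjusted p = 0.974).

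Cd22, a B-cell inhibitory receptor, was counted as measured, but its values resemble a background level. It stood at 4.74, 5.03 and 4.74 on Gata3-/- arrays, against 4.75, 4.77 and 4.73 on Gata3+/- arrays. Apart from Gata3-/- replicate 2 these values hardly varied (SD 0.02 over the Gata3+/- arrays), as was seen for silent probe sets, and the second Cd22 probe set never reached the minimum. The sixth gene, Siglec1, which encodes the macrophage receptor sialoadhesin, was silent, with all values between 2.54 and 2.58.

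Clec2d encodes Clr-b, a ligand by which cells engage an inhibitory receptor of natural killer cells. It stood at 11.21, 11.24 and 11.09 on Gata3-/- arrays, against 11.35, 11.31 and 11.44 on Gata3+/- arrays. The genotypes did not overlap, but the difference of -0.19 (SE 0.08, 95% interval -0.39 to 0.01) did not pass (adjusted p = 0.226). The other 6 Clec2 genes (Clec2e, Clec2g, Clec2h, Clec2i, Clec2l and Clec2m) were silent. Klrb1b, which encodes the receptor for Clr-b, reached the minimum on 2 arrays of each genotype (difference -0.09, SE 0.59, adjusted p = 0.946). Gzma was the 1 measured of 7 markers of natural killer and innate lymphoid cells, and it did not pass; Ncr1, Prf1, Il2rb, Eomes and Tbx21 were silent.

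Cd69 encodes an early activation marker that holds lymphocytes in tissue by removing the receptor S1PR1 from the surface. It stood at 9.59, 9.10 and 8.73 on Gata3-/- arrays, against 9.83, 9.28 and 8.89 on Gata3+/- arrays. The genotypes overlapped, and replicate 1 was the highest and replicate 3 the lowest of both (difference -0.19, SE 0.31, adjusted p = 0.767). S1pr1 had a difference of 0.42 (SE 0.20, adjusted p = 0.293). Clec16a, an intracellular protein of the endolysosomal system that carries the family's name, ranged from 7.08 to 7.31 on Gata3-/- arrays and from 7.18 to 7.28 on Gata3+/- arrays (difference -0.03, SE 0.08, adjusted p = 0.856).

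**Figure D2:**
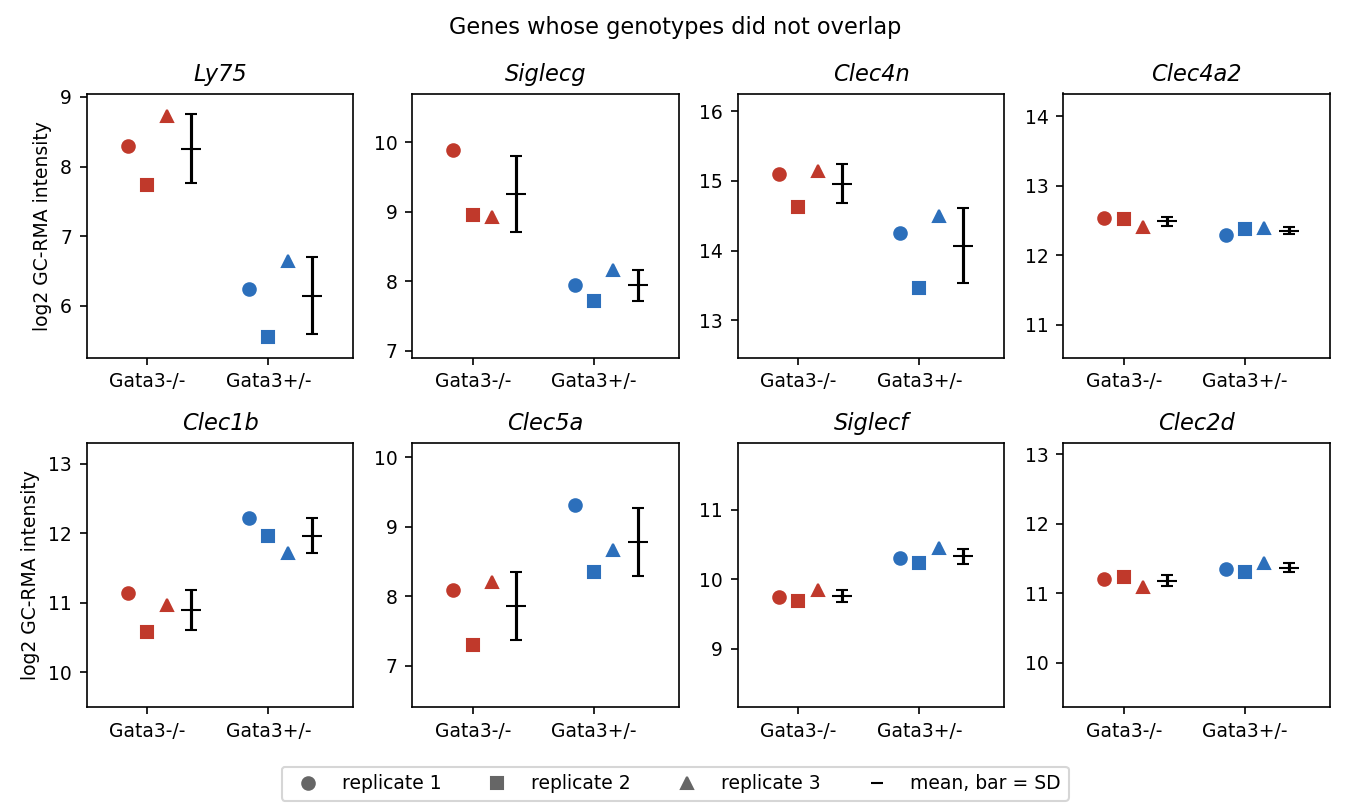
Log2 GC-RMA intensity (vertical axes, all spanning the same log2 range) of the 8 genes whose genotypes did not overlap, with Gata3-/- arrays left and Gata3+/- arrays right, the replicate number as the symbol, and the mean with its SD (n = 3) as black bars. Ly75, Siglecg, Clec4n and Clec4a2 were higher and Clec1b, Clec5a, Siglecf and Clec2d lower in Gata3-/- arrays; of these Ly75, Clec1b and Siglecf passed the test.

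**Figure D3:**
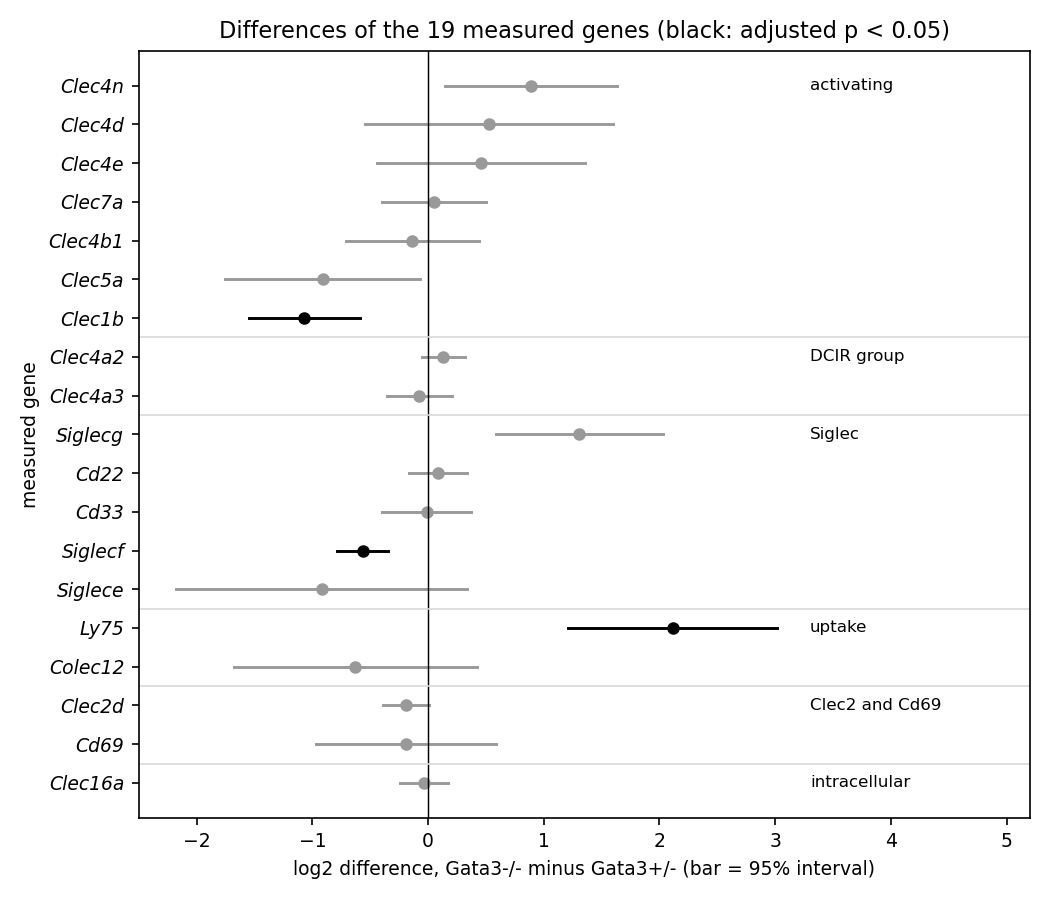
Difference (Gata3-/- minus Gata3+/-, log2) of the 19 measured genes with its 95% interval from limma, grouped by role. Black marks the 3 genes that passed, Ly75 at 2.11, Siglecf at -0.57 and Clec1b at -1.07.

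The silent genes included several known from tissue-resident macrophages and from cells outside the blood. None of the 22 exceeded 3.75 on any array, and 17 stayed below 3 on all arrays. The Cd209 genes, relatives of human DC-SIGN, were silent for Cd209b, Cd209d, Cd209e, Cd209f and Cd209g. Cd209c stood at 3.65, 3.49 and 3.42 on Gata3-/- arrays, against 4.08, 3.65 and 3.80 on Gata3+/- arrays, of which replicate 1 alone reached the minimum.

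Clec4f, a receptor of Kupffer cells, and Clec4g, known from liver endothelium, were silent, as were Clec14a and Clec1a, known from endothelium. Of 6 endothelial markers 4 were measured and 0 passed, with a mean level of 6.31 to 6.35 on Gata3-/- arrays and 6.28 to 6.40 on Gata3+/- arrays, while Cdh5 and Emcn were silent. Clec10a, the galactose-type lectin of macrophages, ranged from 2.03 to 2.49 on Gata3-/- arrays and from 2.49 to 3.13 on Gata3+/- arrays. Clec3b and Clec11a, which encode the secreted proteins tetranectin and stem cell growth factor, and Clec12b and Clec18a were silent too. Under this normalization a low value shows only that the probe set was not above its floor.

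Partners of the receptors were examined from 6 lists. All 3 ITAM adaptors were measured and 0 passed. The adaptor Tyrobp stood at 14.75, 14.59 and 14.65 on Gata3-/- arrays and 14.71, 14.74 and 14.77 on Gata3+/- arrays (difference -0.08, SE 0.07, adjusted p = 0.593). Fcer1g had a difference of -0.12 (SE 0.07, adjusted p = 0.347) and Hcst, which encodes DAP10, of -0.40 (SE 0.13, adjusted p = 0.152).

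Of 11 measured genes of the signalling pathway below the activating receptors, Malt1 rose and 10 did not pass; the median difference was 0.07. Malt1, the protease of the CARD9 complex, stood at 10.97, 10.61 and 10.84 on Gata3-/- arrays, against 9.98, 9.90 and 9.97 on Gata3+/- arrays. The genotypes did not overlap (difference 0.86, SE 0.11, adjusted p = 0.0312). Vav1, a guanine nucleotide exchange factor, had a difference of -0.40 (SE 0.10, adjusted p = 0.0812) and the kinase gene Syk of 0.19 (SE 0.26, adjusted p = 0.706). Card9 was not analysed here.

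All 8 genes of inhibitory phosphatases and adaptors were measured; the adaptor Grb2 rose by 0.55 (SE 0.09, adjusted p = 0.042) and 7 did not pass. Grb2 lies on chromosome 11, where the median difference of 886 tested genes was 0.33. Ptpn6 (SHP-1) had a difference of -0.07 (SE 0.08, adjusted p = 0.656) and Ptpn11 (SHP-2) of -0.22 (SE 0.08, adjusted p = 0.194).

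Of 22 genes that make, attach or remove sialic acid, 20 were measured, St3gal6 fell and 19 did not pass, with a median difference of -0.11. St3gal6, a sialyltransferase, stood at 7.88, 8.39 and 7.68 on Gata3-/- arrays, against 9.55, 9.68 and 9.12 on Gata3+/- arrays (difference -1.47, SE 0.23, adjusted p = 0.0383). Cmah, which converts one form of sialic acid (Neu5Ac) to another (Neu5Gc), stood at 6.81, 6.82 and 6.37 on Gata3-/- arrays, against 8.42, 8.13 and 7.48 on Gata3+/- arrays. Neither gene's genotypes overlapped, and the difference of Cmah, -1.34 (SE 0.27, adjusted p = 0.0562), did not pass.

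The list of ligands and other partners of C-type lectins and Siglecs had 7 measured genes, of which 6 did not pass. Cd24a, which encodes the Siglec-G ligand CD24, rose by 1.30 (SE 0.23, adjusted p = 0.0445). Of 30 named C-type lectin or Siglec genes that the rule did not take, 13 were measured and 15 were silent. Cd72, a B-cell coreceptor, fell by 1.25 (SE 0.15, adjusted p = 0.0289) and 11 did not pass. Siglech, a receptor of plasmacytoid dendritic cells, was below the minimum on every Gata3-/- array and entered the test only through the Gata3+/- arrays, so that its passing the threshold is given no weight. Mrc1, the macrophage mannose receptor, stood at 10.10, 8.30 and 10.23 on Gata3-/- arrays, against 11.23, 11.17 and 11.76 on Gata3+/- arrays. Its genotypes did not overlap, but the difference of -1.84 (SE 0.55) did not pass (adjusted p = 0.118). Of 6 plasmacytoid markers 5 were measured, Siglech among them, so no mean level of this list is set between the genotypes. Pacsin1, an endocytic adaptor, fell by 1.71 (SE 0.19, adjusted p = 0.0283). Bst2, Tcf4 and Spib did not pass, with differences of -0.21 for Bst2 and -0.16 for Tcf4. Spib, a transcription factor, went the other way, at 7.87, 7.16 and 7.77 on Gata3-/- arrays, against 5.47, 3.50 and 5.62 on Gata3+/- arrays (difference 2.74, SE 0.60, adjusted p = 0.0652).

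**Figure D4:**
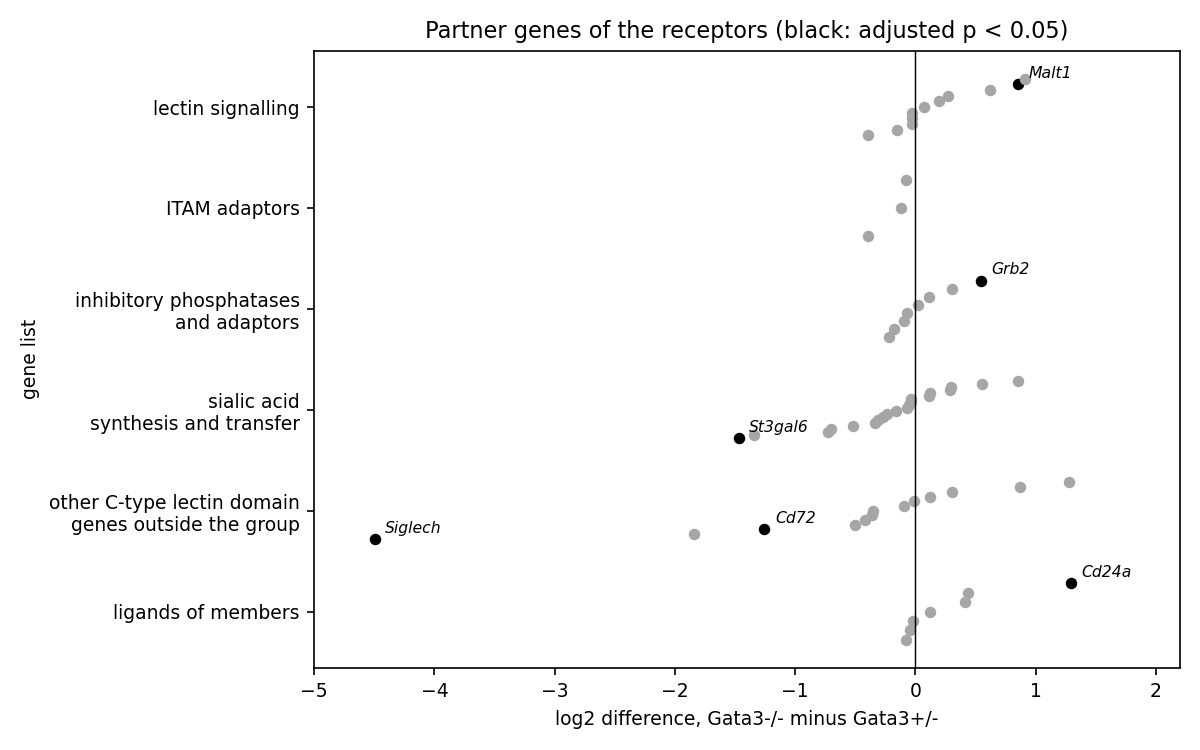
Difference (Gata3-/- minus Gata3+/-, log2) of each measured gene in the 6 lists of partner genes, 1 point per gene. Black marks genes that passed: Malt1, Grb2 and Cd24a were higher and St3gal6 and Cd72 lower in Gata3-/- arrays; Siglech, also black, entered the test only through the Gata3+/- arrays.

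Promoter sequences are shown for the 3 genes that passed and for Clec5a, as an example of a member with repeated PU-boxes. Clec4b1, Clec4e, Siglece and Siglecg also had a window with repeated PU-boxes. Clec5a is not an unchanged comparison, since its genotypes did not overlap although its difference did not pass. PU.1 and GATA3 are transcription factors of blood cells; PU.1 binds the PU-box and GATA3 the GATA motif. Each sequence holds the 250 bases before the start of transcription in RefSeq (build GRCm38.p6), read along the gene from 5′ to 3′. Capitals mark PU-box matches (GAGGAA) and GATA motif matches (GATA with A or T before it and A or G after it), on either strand. No window shown holds both motifs, and a match is a run of letters, not a bound site.
Ly75 (chr2:60383274-60383523, minus strand): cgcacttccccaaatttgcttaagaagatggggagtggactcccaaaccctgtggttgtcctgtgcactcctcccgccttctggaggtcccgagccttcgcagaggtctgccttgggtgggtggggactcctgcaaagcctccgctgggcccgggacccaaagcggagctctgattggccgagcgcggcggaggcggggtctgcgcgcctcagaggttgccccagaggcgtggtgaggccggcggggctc
Clec1b (chr6:129397047-129397296, plus strand): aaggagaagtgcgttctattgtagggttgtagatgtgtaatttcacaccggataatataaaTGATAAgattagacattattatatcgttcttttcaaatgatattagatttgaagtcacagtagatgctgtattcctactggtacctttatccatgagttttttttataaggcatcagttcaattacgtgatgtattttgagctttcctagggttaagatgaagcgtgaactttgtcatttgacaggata
Siglecf (chr7:43351091-43351340, plus strand): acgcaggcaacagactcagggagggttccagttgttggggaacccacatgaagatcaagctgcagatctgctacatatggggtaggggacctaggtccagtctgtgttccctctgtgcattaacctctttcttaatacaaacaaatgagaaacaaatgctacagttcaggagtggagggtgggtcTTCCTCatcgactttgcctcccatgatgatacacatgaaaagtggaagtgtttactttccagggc
Clec5a (chr6:40585806-40586055, minus strand): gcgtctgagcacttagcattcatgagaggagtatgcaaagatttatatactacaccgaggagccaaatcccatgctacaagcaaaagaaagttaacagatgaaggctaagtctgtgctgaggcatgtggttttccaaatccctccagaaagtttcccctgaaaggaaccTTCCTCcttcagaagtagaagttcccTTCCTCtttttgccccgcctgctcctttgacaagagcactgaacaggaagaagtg

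The window of Ly75 held neither motif. That of Clec1b held 1 GATA match, 189 bases before the start, and no PU-box. That of Siglecf held 1 PU-box, 65 bases before the start, and that of Clec5a held 2, at 81 and 55 bases.

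RefSeq gave a window for 16 of the 19 measured genes, 19 windows in all. PU-boxes stood in 12 of the 19 windows (63.2%), from 11 genes, against 31.6% of the 19 windows of 18 silent genes, 22.5% of the windows of all genes tested and 23.3% of all 32851 windows. GATA matches stood in 2 of the 19 windows (10.5%), those of Clec1b and Clec16a, against 52.6% for silent genes, 16.9% for all genes tested and 26.5% of all windows. These shares are descriptions without a test, and windows of 1 gene can share bases.

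The genes lie in clusters. Chromosome 6 holds 21 of the 42, 11 of them measured, chromosome 7 holds 6, with all 5 measured Siglec-type genes, and chromosome 8 holds 8, all of them below the filter. Among all tested genes the median difference was 0.0016 on chromosome 6 and -0.05 on chromosome 7. The 24 nearest tested genes had a median difference of 0.19 around Ly75, -0.12 around Clec1b and -0.03 around Siglecf.

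The arrays numbered 2 were low for many of these genes. Of the 19 measured genes, 9 had their lowest value on the array numbered 2 in both genotypes (47.4%), against 22.5% of all genes tested. These were Ly75, Clec4n, Clec4d, Clec4e, Clec5a, Clec7a, Colec12, Siglecf and Siglece. The conventional dendritic cell, OP9 stroma, macrophage and monocyte, platelet and megakaryocyte, and Langerhans cell lists had their lowest means on the same arrays. So did the partner lists of signalling genes, of inhibitory phosphatases and adaptors, and of lectin genes outside the rule. The other lists did not. Without both arrays numbered 2 the differences of Ly75, Siglecf and Clec1b were 2.07, -0.58 and -0.92, and none passed. Of all genes, that fit called 0.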

How the data were processed

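Per the labels, the authors made the 6 arrays' values with GC-RMA, which corrects background from probe sequence and normalizes between arrays. The deposited values are linear intensities of 45101 probe sets, from 2.28 to 77334.92, with array medians of 8.57 to 8.93. The submitters' processing notes name GCOS (Affymetrix software); versions and settings: not given in the sources used here. Dim probe sets sit on a floor and differences between them say little. The number of arrays limits the precision.

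Deposited intensities were converted to log2 with no further normalization. After 64 control probe sets were removed, the 20102 at log2 4 (intensity 16) or more on at least 3 arrays entered limma (version 3.58.1, R version 4.3.3; two-sided, Benjamini-Hochberg adjustment over all of them). The platform annotation gave 1 symbol to 34958 probe sets, several to 932 and did not list 9211. One probe set with several symbols, which fitted the rule in part, was left out. All 42 genes were found by identifier in RefSeq (GRCm38.p6), with 0 symbols changed; it gave chromosomes, gene order and promoter sequences. Plots used matplotlib version 3.10.9 and Python version 3.11.15.

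The genes and lists were chosen with earlier results of these data known. All measured genes are named. From each of the 6 partner lists the called genes and the 2 with the smallest p are named, beside others picked for their role after their values were seen. The procedure was tested on simulated data. Alternatives were other filters, normalizations, variance models and probe set summaries, array weights, a replicate block, a 2-fold minimum and fewer arrays.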

Additional observations from a re-analysis of the deposited data

How the results depend on the processing

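The 3 calls depended on the processing. Ly75 was the 1 gene called higher, and the 2 called lower were Clec1b and Siglecf. Quantile normalization, median centring, a minimum of log2 6, a variance trend with robust eBayes and the mean of a gene's probe sets called the same 3 genes. Without a filter, 0 were called higher and 0 lower (limma gave 4 and 3 at an unadjusted p under 0.05). Without both arrays numbered 2 the counts were likewise 0 and 0 (3 and 3). Array weights called 2 higher, Siglecg being the other, and a 2-fold minimum called 1 lower (Clec1b). Each fit that left out a single array called 0 higher and 0 lower, with 2 to 4 in either direction at an unadjusted limma p under 0.05, on fewer arrays. Over all alternatives the difference ran from 1.82 to 2.37 for Ly75 (adjusted p 0.0188 to 0.128), from -1.19 to -0.91 for Clec1b (0.0214 to 0.179) and from -0.61 to -0.51 for Siglecf (0.0196 to 0.143). None of the 3 changed sign. Of 299 recomputed differences 12 changed sign, in 6 genes, none of them called. The number measured was 16 with the minimum of log2 6, 17 with averaged probe sets and 19 with quantile normalization, with median centring and in each fit on fewer arrays; without a filter the count does not apply.

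With the replicate block, 1 gene was called higher (Ly75, adjusted p = 0.0399) and 0 lower (5 at an unadjusted p under 0.05). Of all genes, that fit called 298. Between same-numbered arrays of the genotypes, the correlation of deviations was 0.005 (number 1), 0.695 (number 2) and 0.429 (number 3). Of the 6 arrays, 4 correlated best with their own number. The labels tie the arrays by number alone, so they were not treated as pairs. The cause of the lost calls was not tested.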
